A study of Canis lupus familiaris with 24 samples.

Results

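Blood clotting is started by tissue factor, a membrane protein coded by F3 that binds clotting factor VII when blood meets cells outside the vessel wall. Vessels themselves are lined by endothelial cells, which carry the VEGF receptor coded by KDR, release the platelet-binding protein von Willebrand factor coded by VWF, and seal their contacts through scaffold proteins such as the one coded by TJP1. In a lymph node these genes are best known from the vessels and supporting tissue rather than from B lymphocytes, and tissue factor can also be made by monocytes and by tumour cells. F3, KDR, VWF and TJP1 are described here in canine B-cell lymphoma before and after it stopped responding to chemotherapy. They were selected on their measured levels in these arrays, by dog and phase, and are 4 of the 832 genes on the array that could be named. They are measured by 5 of 43603 probes, 1 each for F3, KDR and VWF and 2 for TJP1, and all 5 were among the 34550 probes bright enough to be tested.

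The samples were fine-needle aspirates of lymph nodes from 4 pet dogs with B-cell lymphoma, taken in a drug-sensitive and in a drug-resistant phase. Dog 1 was a male Shih Tzu aged 10 years, dog 2 a male Doberman aged 9, dog 3 a castrated male French Bulldog aged 3 and dog 4 a spayed female French Bulldog aged 5. The labels name neither the drugs nor the time between phases. An aspirate is a mixture of tumour and other cells, and there was no healthy node for comparison. For each dog and phase 3 arrays were hybridised with Cy3-labelled RNA, which makes 8 groups and 24 arrays. The labels do not say that these 3 came from separate aspirates, so the spread between them may be technical.

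Levels are given as log2 of a probe's signal minus the 75th percentile of its array, so that 0 is a spot at that percentile and each step of 1 is a doubling. The lowest signal that passed as well above background on an array was 7.11 to 12.4 units. On each array between 71.0% and 80.9% of spots lay well above background, and the 75th percentile lay between 676 and 1117 signal units. The B cell genes MS4A1 and CD40 were bright in each group, at a mean of 4.57 to 5.04. The arrays lay on 7 slides. In dog 4 the 3 resistant arrays had a slide of their own and were scanned on another occasion than all the others, so in that dog phase and slide cannot be told apart. A probe was called in a dog where it differed by at least 2-fold with an adjusted p (Benjamini-Hochberg) under 0.05, in a limma fit over the 24 arrays. The phase differences of the members served to choose them, so these differences are a description and support nothing further.

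F3 was lower in the resistant phase of all 4 dogs. The difference was 8.51-fold in dog 2 and 3.81-fold in dog 3, while in dogs 1 and 4 only 1 of 3 resistant arrays was well above background, so no exact fold is given there. In dog 2 its levels were -2.08, -2.10 and -2.02 on the sensitive arrays and -5.24, -5.03 and -5.19 on the resistant arrays. In dog 3 they were -3.01, -3.09 and -3.03 and then -5.08, -4.86 and -4.99. Both dogs thus went from clearly measured to dim but still detected, with narrow spread and no overlap. In dog 4, where F3 was dimmest at the start, the sensitive levels were -4.47, -4.62 and -4.43 and the resistant ones -6.21, -5.73 and -6.52, of which only the -5.73 was well above background. In dog 1 the sensitive levels were -4.17, -4.03 and -4.07 and the resistant ones -8.57, -4.36 and -7.61. Here the resistant arrays disagreed: array 2 lay just under the sensitive arrays, while the other 2 were not well above background. In signal units these 3 arrays read 2.33, 44.7 and 4.44, against 45.3 to 48.6 on the sensitive arrays.

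On the log2 scale, resistant minus sensitive, F3 differed by -2.76, -3.09, -1.93 and -1.65 in dogs 1 to 4, each with a standard error (SE) of 0.63. Those of dogs 1 and 4 rest on mostly undetected resistant signal. The SE is 1 value shared by the 8 groups, and the resistant arrays of dog 1 had an SD of 2.21 where the other groups had 0.04 to 0.39. Leaving out single arrays moved the difference in dog 1 between -4.00, without resistant array 2, and -1.89, without resistant array 1. The mean over dogs was -2.36 (SD over dogs 0.68, n = 4 dogs, lower in 4 of 4). Its SE was 0.28 from a limma fit over the 8 group means. In that fit 0 of the 34550 probes tested had an adjusted p under 0.05 for phase. The lowest limma adjusted p there was 0.344, and that of F3 was 0.373. The calls within dogs thus rest on arrays whose spread may be technical, and no probe passed the test across dogs. F3 was called lower in all 4 dogs, as were 0.162% of the probes tested. In dog 4 the call was lost on leaving out sensitive array 1, 2 or 3 or resistant array 1 or 3 (limma adjusted p 0.0673 to 0.114), with the slide as a random block (-1.63, limma adjusted p = 0.143) and with the authors' value table (-0.54). It was lost in dog 3 with the slide as a fixed block (-2.03, limma adjusted p = 0.0652). Within slides that held both phases it differed by -3.14 and -2.03 in dogs 2 and 3, with 1 array on one side each time. The value of dog 1 (-4.48) rests on resistant array 1, which was not well above background. Resistant array 2 of dog 1, the only detected one, lay on another slide. In such mixed samples, fewer cells of a type and less RNA per cell cannot be told apart.

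Ordered by mean, F3 ran from -2.06 (dog 2 sensitive) through -3.04 (dog 3 sensitive), -4.09 (dog 1 sensitive) and -4.51 (dog 4 sensitive) to -4.97 (dog 3 resistant), -5.15 (dog 2 resistant), -6.16 (dog 4 resistant) and -6.85 (dog 1 resistant). All 4 sensitive means thus stood above all 4 resistant means. Neighbouring groups overlapped only between the resistant arrays of dogs 3 and 2 and between those of dogs 4 and 1. One array broke the order: resistant array 2 of dog 1 (-4.36) was above all 3 sensitive arrays of dog 4.

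**Figure D1:**
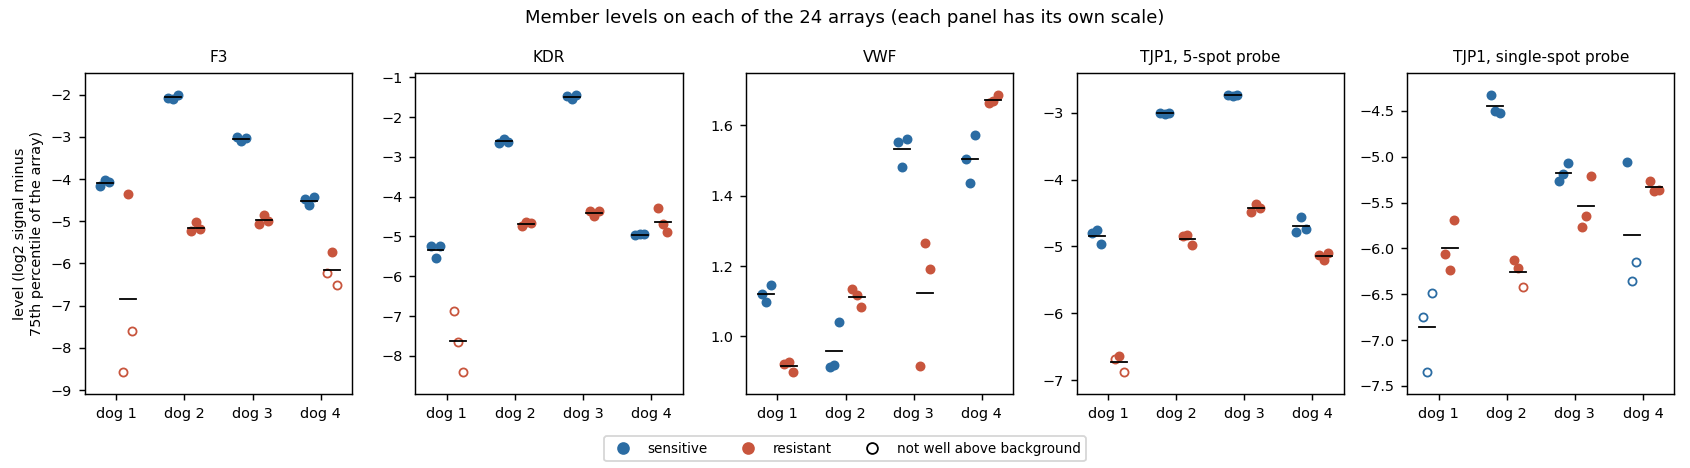
Level of each probe (vertical axis, log2 signal minus the 75th percentile of the array, a separate scale in each panel) on every array by dog and phase, with filled points well above background, open points not, and bars at the group means. F3 is lower in the resistant phase of each dog, with 1 high array in dog 1 at -4.36, KDR and the 5-spot TJP1 probe are lower in dogs 1 to 3 (-2.92 to -1.68), and VWF stays between 0.90 and 1.69 throughout.

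KDR, the main signalling receptor for VEGF on endothelium, was lower in the resistant phase of dogs 1, 2 and 3 and not in dog 4. The largest difference was in dog 3, from -1.47, -1.55 and -1.45 to -4.37, -4.48 and -4.37, which is 7.55-fold. In dog 2 KDR went from -2.65, -2.56 and -2.62 to -4.75, -4.63 and -4.67, which is 4.22-fold. In dog 1 the sensitive levels of -5.25, -5.53 and -5.24 were already dim, and none of the resistant levels of -6.87, -7.65 and -8.40 was well above background. That difference is given as at least 2.54-fold lower in the processed signal. This bound sets the mean of the sensitive arrays against a floor. For each resistant array the floor was the higher of the probe's own value and the lowest signal well above background. A spot can fail above that lowest signal, as F3 did on resistant array 1 of dog 4 (9.87 against 9.41 units). Such bounds are therefore approximate. The difference in dog 1 was smaller from the authors' value table (-0.66) and after normexp correction and quantile normalisation (-0.32), and was called with neither. In dog 4 KDR stood at -4.97, -4.94 and -4.95 in the sensitive phase and at -4.30, -4.69 and -4.89 in the resistant phase. There all 3 resistant arrays were above the sensitive ones, the nearest by less than the spread of the resistant arrays.

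KDR differed by -2.08, -2.92 and 0.33 in dogs 2 to 4 (SE 0.24 each). With dog 1 at its bound of -1.35 the mean over dogs was -1.50 (SD 1.38, n = 4 dogs, lower in 3 of 4), and with the fitted value of dog 1 (-2.30), which rests on undetected signal, -1.74. Within slides it was -2.07 in dog 2 and -2.87 in dog 3. By level, the sensitive arrays of dog 3 (-1.49) and dog 2 (-2.61) stood well above all others. Below them came 3 groups near each other, the resistant arrays of dogs 3 (-4.41), 4 (-4.63) and 2 (-4.68), in which dog 4 overlapped both neighbours. The sensitive arrays of dog 4 (-4.95) and dog 1 (-5.34) were lower still, and the resistant arrays of dog 1 (-7.64) were last. KDR in sensitive dog 4 thus lay below its level in the resistant phase of dogs 2 and 3.

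VWF, which is stored in endothelial cells and platelets, was bright in each sample and was called in 0 of 4 dogs. In dog 1 it read 1.12, 1.10 and 1.15 in the sensitive phase and 0.92, 0.93 and 0.90 in the resistant phase. In dog 3 it read 1.55, 1.48 and 1.56 and then 0.92, 1.27 and 1.19. In dog 2 it read 0.91, 0.92 and 1.04 and then 1.13, 1.12 and 1.08, and in dog 4 1.50, 1.44 and 1.57 and then 1.66, 1.67 and 1.69. VWF was thus lower in dogs 1 and 3 and higher in dogs 2 and 4, and the phases did not overlap in any dog. Such separation was common with 3 arrays a side. In dogs 1 and 3, 33.6% and 27.2% of all probes had all resistant arrays below all sensitive arrays. The share with all resistant arrays above was not counted. The differences were -0.21, 0.15, -0.41 and 0.17 in dogs 1 to 4 (SE 0.06 each), all under 1.33-fold. Their mean was -0.07 (limma SE 0.15, SD over dogs 0.28, n = 4 dogs). In dog 1 the difference came to -0.02 when arrays were scaled to their median in place of the 75th percentile, and in dog 3 it was -0.62 within the shared slide. By level, the resistant arrays of dog 4 (1.67) were highest and the resistant arrays of dog 1 (0.92) lowest. Dog 3 sensitive (1.53) and dog 4 sensitive (1.50) overlapped, as did dog 3 resistant (1.12), dog 1 sensitive (1.12) and dog 2 resistant (1.11) in that order, and dog 2 sensitive (0.96) with dog 1 resistant.

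TJP1 codes for ZO-1, which ties the proteins of tight junctions to the actin skeleton. Its first probe is printed in 5 spots per array and its second in a single spot, and the pair is described separately since they differed. On the 5-spot probe TJP1 went from -4.81, -4.76 and -4.96 to -6.68, -6.65 and -6.88 in dog 1 and from -3.01, -3.02 and -3.01 to -4.85, -4.83 and -4.98 in dog 2. Dog 3 had -2.74 on all 3 sensitive arrays and -4.48, -4.36 and -4.43 on the resistant ones. No arrays of different phase overlapped, and the difference was 3.67-fold in dog 2 and 3.21-fold in dog 3. In resistant dog 1 only 5 of the 13 spots used were well above background and 1 of the 3 arrays counts as such, so no exact fold is given. Dog 4 went from -4.78, -4.56 and -4.74 to -5.13, -5.21 and -5.09, lower on every array but 1.37-fold in size and not called. The fitted differences in dogs 1 to 4 were -1.90, -1.88, -1.68 and -0.45 (SE 0.07 each), and that of dog 1 was -0.70 from the authors' value table. Their mean was -1.48 (limma SE 0.29, SD over dogs 0.69, n = 4 dogs, lower in 4 of 4). Within slides the differences were -1.84, -1.88 and -1.74 in dogs 1 to 3, that of dog 1 from a resistant array not well above background. The order by level was dog 3 sensitive (-2.74), dog 2 sensitive (-3.01), dog 3 resistant (-4.42), dog 4 sensitive (-4.69), dog 1 sensitive (-4.84), dog 2 resistant (-4.89), dog 4 resistant (-5.14) and dog 1 resistant (-6.74). The 3 groups from dog 4 sensitive to dog 2 resistant overlapped as neighbours, and the others did not.

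The single-spot probe of TJP1 was near the detection limit on most arrays and gave another picture. It was called lower in dog 2, from -4.33, -4.50 and -4.53 to -6.12, -6.22 and -6.42. In dog 1 it went the other way, from -6.75, -7.35 and -6.49, none well above background, to -6.06, -6.23 and -5.69, which is at least 1.42-fold higher and not called. In dog 3 (-5.26, -5.19 and -5.07, then -5.76, -5.65 and -5.21) and dog 4 (-5.05, -6.35 and -6.15, then -5.27, -5.38 and -5.36) the phases overlapped. Its differences were 0.87, -1.80, -0.37 and 0.52 (SE 0.26 each). In dog 1 the rise was called with arrays scaled to the median (1.05), after quantile normalisation (1.22) or without sensitive array 3 (1.05). The 2 probes of TJP1 thus agree in dog 2 alone on a difference past 2-fold.

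**Figure D2:**
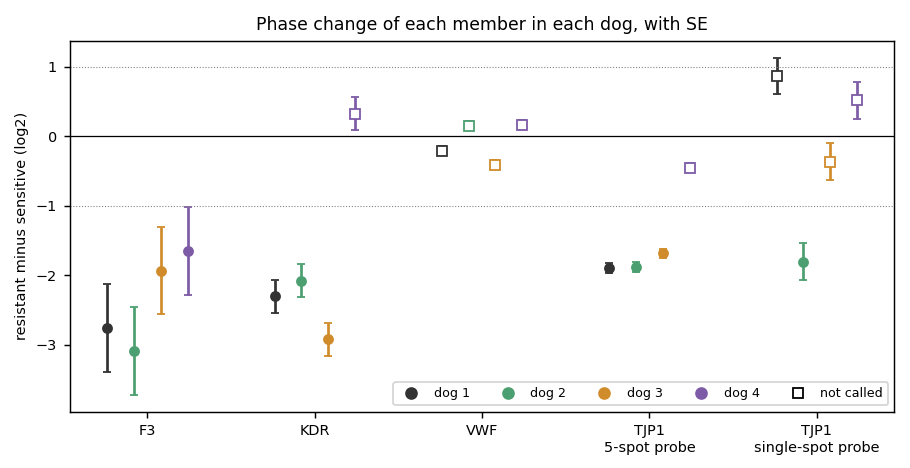
Resistant minus sensitive difference (log2, vertical axis) of each probe in dogs 1 to 4 with its SE from the limma fit over 24 arrays; filled circles were called, open squares were not, and dotted lines mark 2-fold. Values of F3 in dogs 1 and 4 and of KDR and TJP1 in dog 1 rest on signal mostly not above background. F3 is filled in 4 dogs, KDR and the 5-spot TJP1 probe in dogs 1 to 3, the single-spot TJP1 probe in dog 2 and VWF in none.

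Over the 5 probes, F3, KDR and the 5-spot TJP1 probe were called lower in dog 1, the same with the single-spot probe in dog 2, F3, KDR and the 5-spot probe in dog 3 and F3 alone in dog 4. Of all tested probes, 7.76%, 10.1%, 5.5% and 1.57% were called lower in dogs 1 to 4. No probe of the 4 genes was called higher in any dog, where 3.55%, 3.54%, 1.26% and 3.77% of all probes were. All resistant arrays lay below all sensitive arrays for 4 of the 5 probes in each of dogs 1, 2 and 3 and for 2 of 5 in dog 4. That was so for 33.6%, 27.6%, 27.2% and 25% of all probes in dogs 1 to 4. The reverse order, seen for VWF in dogs 2 and 4 and KDR in dog 4, was not counted over all probes. F3 and the 5-spot TJP1 probe had a negative difference in all 4 dogs, as did 7.45% of all probes. Since these contrasts were used to pick the genes, nothing is read from the excess. The median difference of all tested probes was -0.05, 0.10, 0.02 and 0.05 in dogs 1 to 4.

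Averaged over both phases, the level of 3 of the genes had a wide range over the dogs. F3 averaged -5.47, -3.61, -4.01 and -5.33 in dogs 1 to 4, KDR -6.49, -3.65, -2.95 and -4.79, and the 5-spot TJP1 probe -5.79, -3.95, -3.58 and -4.92. Dogs 2 and 3 stood above dogs 1 and 4 for each of these, by a range of 1.86 for F3, 3.54 for KDR and 2.21 for TJP1. VWF averaged 1.02, 1.03, 1.33 and 1.59, a range of 0.57 with another order. For F3 the mean gap between phases (-2.36) was larger than the range between dogs, while for KDR and the 5-spot TJP1 probe it was smaller. For these 3 genes the averages of dog 1, and for F3 that of dog 4, include resistant signal mostly not well above background. Neither the ranges nor the comparison with the phase gap is therefore exact. These averages come from the levels by dog and phase on which the genes were selected, so they are given with no test.

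KDR and TJP1 followed each other closely over the 8 groups. The Pearson correlation of their group means was 0.976 for KDR with the 5-spot TJP1 probe, 0.915 for F3 with TJP1 and 0.817 for F3 with KDR. VWF stood apart, at -0.04 with F3, 0.36 with KDR and 0.23 with TJP1. The 2 TJP1 probes correlated at 0.60. These values describe 8 points from 4 dogs, 2 per dog, that share slides and scaling, 1 of them (dog 1 resistant) with KDR not above background, and they carry no test.

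**Figure D3:**
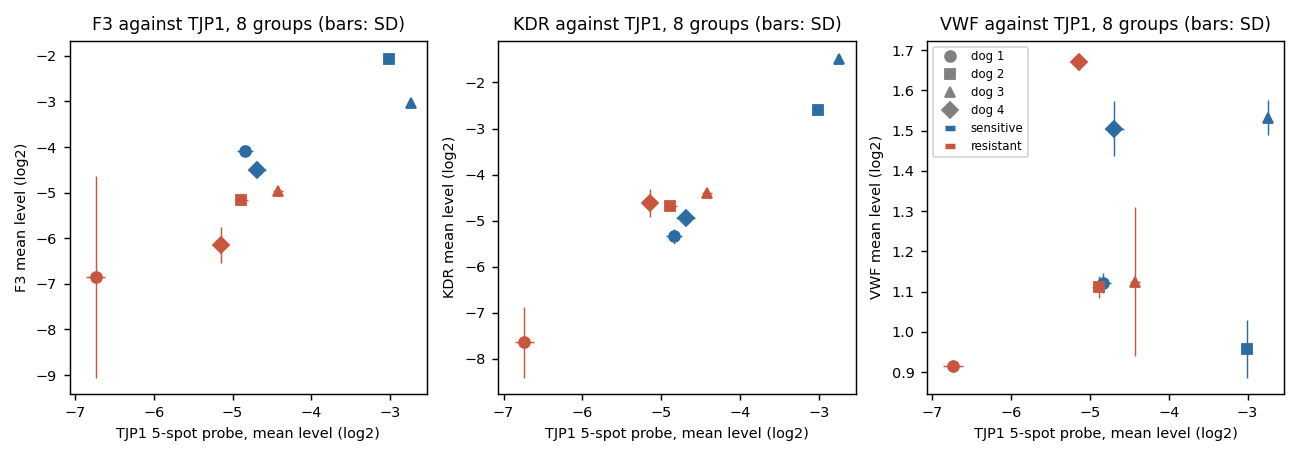
Mean level of F3, KDR and VWF (vertical axes, log2) against the 5-spot TJP1 probe (horizontal axis, log2) in the 8 groups, marked by dog and phase, with SD over 3 arrays. KDR lines up with TJP1 (0.976), F3 less so (0.915) and VWF hardly (0.23).

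The most similar of the 717 other named genes were ranked by the same correlation for each member. For F3 these were ZFPM2 (0.965), DMD (0.943), ANXA2 (0.937), CYGB (0.931) and APP (0.923). ZFPM2 codes for a cofactor of GATA transcription factors and DMD for dystrophin. ZFPM2 differed by -1.25, -1.70, -1.31 and -0.67 in dogs 1 to 4. For KDR the list was TJP1 (0.976), PTGES (0.969), TMEM47 (0.965), CAV2 (0.945) and KIT (0.939), and for the 5-spot TJP1 probe KDR, PTGES (0.970), DMD (0.953), TMEM47 (0.948) and CYGB (0.940). PTGES, which makes prostaglandin E, differed by -1.73, -1.31, -1.89 and -0.32, and TMEM47, a membrane protein of cell junctions, by -1.11, -1.33, -2.95 and -0.45. For VWF the nearest were CYP3A26 (0.896), OR52N2G (0.894), FUT5 (0.888), ACAN (0.875) and SLCO2A1 (0.874), and it shared no name with the other members' lists.

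Other genes of endothelium were measured for 7 of the 30 listed, and the defining genes PECAM1 and CDH5 are not analysed here. Of these 7, the number called lower was 3, 4, 2 and 0 in dogs 1 to 4, with 0 called higher, and the list's median difference was -0.80, -1.23, -0.21 and 0.17. CAV1, the main protein of caveolae, fell in dogs 2 (-1.23) and 3 (-2.10) and had -0.05 in dog 4. It was also called in dog 1, but was not well above background there in either phase, so no size is given. EDN1, which codes for the vasoconstrictor endothelin 1, was called lower in dogs 1 to 3 too, but was well above background on none of their resistant arrays. Its difference in dog 3 was at least 1.27-fold, with 2 of 3 sensitive arrays well above background. No size can be given for dogs 1 and 2, and dog 4 had 0.17. VCAM1, an adhesion molecule of activated endothelium and stroma, was called in dog 2 alone (-1.45). PDPN, a marker of lymphatic endothelium and of reticular stroma, was called in dogs 1 (-1.55) and 2 (-2.77). In resistant dog 2 only 1 of 3 arrays had PDPN well above background, so that size is not exact. Like VWF, the endothelial genes THBD (-0.01, 0.11, 0.10 and 0.48), NOS3 (0.83, -0.07, -0.08 and 0.32) and SELE (-0.80, -0.02, -0.01 and 0.65) were not called in any dog. A second probe of SELE had -4.60, -0.88, -1.72 and 0.25, so its probes disagreed. With normexp background correction the endothelial counts were 0, 1, 0 and 0.

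Of the 19 listed clotting factors only F9 could be tested beside tissue factor, and it was not called in any dog (0.32, 0.26, 0.79 and 0.72). F7, the partner of tissue factor, and F8, which von Willebrand factor carries, did not pass the filter on dim probes. The brakes on clotting and its breakdown had 4 of 20 genes measured, with 1 called lower in each of dogs 1, 2 and 3. TFPI, the direct inhibitor of tissue factor, was called in dog 3 (-1.41) and had -0.60, -0.61 and -0.33 in dogs 1, 2 and 4. ANXA2, a cell-surface receptor for plasminogen and its activator, was called in dogs 1 (-2.13) and 2 (-1.88), with -0.96 and -0.14 in dogs 3 and 4. THBD and PROC, both of the protein C pathway, were called in 0 dogs. Among 4 of 13 platelet and thrombin receptors, the ADP receptor gene P2RY12 was called in dogs 1 (-1.97), 2 (at least 3.17-fold lower) and 4 (at least 1.07-fold lower, with 1 sensitive array well above background), and GP1BA, part of the platelet receptor for von Willebrand factor, in dog 1 (-1.08). ITGA2B and ITGB3, the platelet fibrinogen receptor, were not called.

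Around KDR, 5 of 27 VEGF and angiopoietin pathway genes were tested. VEGFA, the ligand of the KDR receptor, was bright at 1.72 to 2.82 and was not called in any dog (0.10, 0.26, 0.51 and 0.46), with a second probe at 0.44, -0.37, 0.36 and 1.36. KITLG, the ligand of KIT, was called lower in dogs 1 (at least 1.48-fold) and 2 (-1.34), with -0.40 and -0.31 in dogs 3 and 4. In dog 1 only 2 of 3 sensitive arrays had KITLG well above background, so that bound is not exact. ANGPT2, PDGFB and PDGFRB were not called. Around TJP1, 7 of 30 junction genes were tested, with 2, 2, 0 and 1 called lower in dogs 1 to 4 and 1 called higher in dog 1. OCLN, a membrane protein that binds ZO-1, rose in dog 1 (2.21) and was not well above background in the other dogs. CLDN2 was called lower in dog 1 (-2.75) with resistant arrays that spread by an SD of 2.41. CGN was called lower in dogs 2 (-2.48) and 4 (-1.33) by 1 probe, while its other probe had 1.46, -0.32, -0.05 and 1.18. For CLDN2 in dog 1 and CGN in dog 4 only 1 of 3 resistant arrays was well above background, so these sizes are not exact. The gap junction gene GJA1 was called lower in dogs 1 (at least 1.33-fold) and 2 (at least 1.40-fold).

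**Figure D4:**
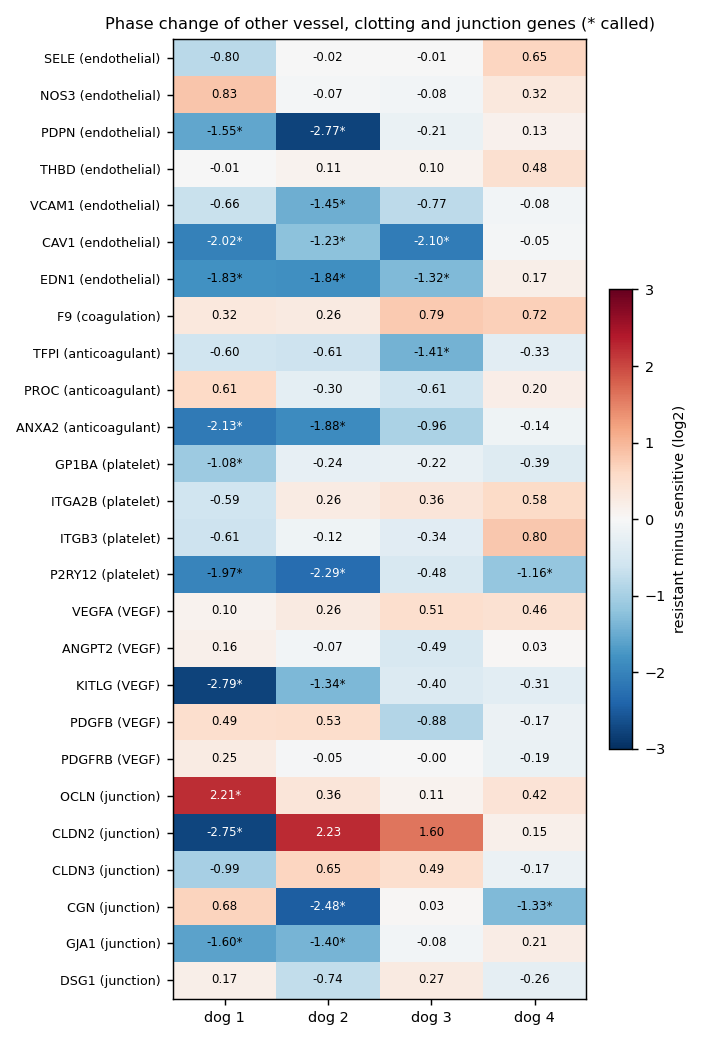
Resistant minus sensitive difference (log2, colour from -3 to 3 and printed value) of the other endothelial, clotting, platelet, VEGF and junction genes described (rows) in the 4 dogs (columns); a star marks a call. Most stars are in dogs 1 to 3, with CAV1 and EDN1 starred in all 3 (in dog 1, and for EDN1 in dog 2, on signals too dim to give a size), and dog 4 has stars at P2RY12 and CGN alone.

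Markers of other cells in an aspirate moved in the same samples. Of 8 stroma genes measured, 3, 6, 6 and 2 were called lower in dogs 1 to 4 and 1, the chemokine gene CCL19, higher in dog 1, and their mean level went from -3.12 to -3.84, -2.10 to -3.67, -0.75 to -2.40 and -2.84 to -3.42. CXCL12, made by stromal cells, differed by -2.77, -1.77, -1.89 and -1.69, and DCN, which codes for the matrix protein decorin, by -2.49, -3.75 and 0.12 in dogs 1, 3 and 4 and, in dog 2, where no resistant array was well above background, at least 1.88-fold downwards. A second DCN probe had -2.57, 0.03, -3.44 and -0.50, so the probes disagree in dog 2. COL1A1 was called lower in dogs 2 (-1.92) and 3 (-1.45) by its brightest probe, while its other probes lay between -0.34 and 0.08 there. COL1A2 was called lower in dogs 1 to 3. Its other probes ran from -3.11 to -0.13 in dog 1, -1.56 to -0.17 in dog 2 and -1.58 to 0.16 in dog 3. CXCL12 was called lower in all 4 dogs, as were 0.162% of the probes tested. The 3 monocyte genes went from a mean level of -0.08 to -1.29, -1.42 to -1.28, -0.61 to -2.31 and -3.25 to -3.05 in dogs 1 to 4, with 1, 0, 3 and 0 of them called lower and FCGR1A called higher in dog 2. T cell genes were called lower for 3, 5 and 3 of 5 in dogs 1 to 3 and 0 in dog 4, and NK genes for 2, 2, 1 and 0 of 2. In dog 1 these T cell calls include ICOS, not well above background in either phase, and CD28, detected on 1 of 3 resistant arrays. CD8A was called in dog 2 alone, while its second probe had -1.71, -6.81, -1.56 and -1.03. A second CTLA4 probe had -1.82, -5.76, -2.18 and 1.34. Of 5 neutrophil genes, 4 were called lower in dogs 1 and 3 each and 0 in dogs 2 and 4, with 1 higher in dog 1 (ELANE) and 2 in dog 2 (CAMP and MMP9). CAMP, which codes for an antimicrobial peptide of neutrophils, had -5.46, 4.49, -5.42 and -0.38. In dog 2 ELANE had 0.08, CXCR2 1.05 and SLPI 1.16, none of them called. The part of these cells in the differences of F3, KDR and TJP1 was not tested.

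The sizes of these differences depended on how background was handled, and the folds given as at least are approximate and hold for the processed signal alone. F3 on average over dogs differed by -2.36 from the processed signal, by -1.25 from the authors' value table of raw median signals and by -0.88 after normexp correction and quantile normalisation. The raw medians still include background, and the normexp correction added an offset of 50 signal units. For the 5-spot TJP1 probe the mean was -1.48 and, after normexp, -0.56. After normexp F3 was called in dog 2 alone, KDR in dogs 2 and 3, and TJP1 and VWF in none, so that 3 of 16 pairs of gene and dog were called in place of 10. The direction of F3, KDR, VWF and the 5-spot TJP1 probe was kept in each dog under all 5 ways of correction and scaling.

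**Figure D5:**
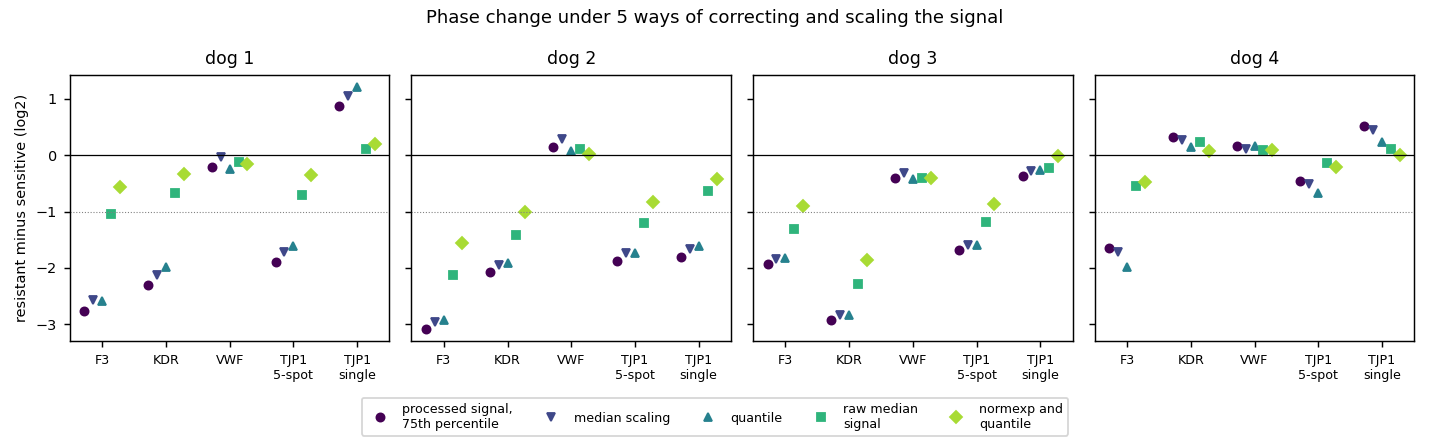
Resistant minus sensitive difference (log2, vertical axis) of each probe in the 4 dogs under 5 ways of correcting and scaling the signal; the dotted line marks 2-fold lower. The first 3 settings lie close together, and the raw median signal and normexp bring the dim genes F3, KDR and TJP1 towards 0 while VWF, which is bright, moves less.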

How the data were processed

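RNA was kept in a stabilising solution, column-purified and Cy3-labelled with a low-input kit, per the labels' protocols. The authors deposited scanner intensity from Agilent Feature Extraction 10.7.3.1, with the processed signal already background-subtracted per the file headers, and a value table of raw median intensity, equal to the scanner medians (largest difference 0), linear, uncentred and unscaled, with column medians of 97 to 141. From these, log2 processed signal minus each array's 75th percentile was computed, without control and outlier spots, and spots of a probe were averaged. Probes were kept if all 3 arrays of some group had them well above background. Names came from RefSeq (UU_Cfam_GSD_1.0): 832 of 35908 identifiers matched. The brightest probe stood for a listed gene. Tests were two-sided, with limma 3.58.1 in R 4.3.3. They were run on simulated data with planted changes of 3 on the log2 scale. For the test across dogs all simulated probes had the same spread, so recovery of smaller changes or with real spreads was not checked. Described genes are the 4 members, the 5 most similar to each and the tested list genes. The result of 1 junction gene is not reported here. Members and lists were chosen with earlier results of these data known. The planned F-test of the dog term is not given, since the members were chosen on levels by dog and phase. Alternatives covered scaling, background, filters, slide, replicate block and single arrays.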

Additional observations from a re-analysis of the deposited data

Results flagged for a closer look

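The phase difference of the 5-spot TJP1 probe in dog 4 (-0.45) lay far from those of the other 3 dogs (-1.90 to -1.68). The resistant level of KDR in dog 1 (-7.64) lay far below that of the other 3 dogs (-4.68 to -4.41), and none of its arrays was well above background. Such gaps were looked for in 15 sets of 4 dogs. The sets share values, and the genes were selected on levels by dog and phase. No chance rate therefore holds, and the flags are a description with no test.

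KDR was higher on all resistant arrays of dog 4 (0.33) and lower on all those of dogs 1 to 3. VWF was higher in dogs 2 (0.15) and 4 (0.17) and lower in dogs 1 and 3. The single-spot TJP1 probe was higher in dog 1 (0.87) and lower in dog 2. These differences between dogs were not tested, and in dog 4 phase and slide cannot be told apart.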

How the results depend on the processing

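The direction of each phase difference of F3, KDR, VWF and the 5-spot TJP1 probe was kept in each dog under every alternative that could be fitted, and that of the single-spot TJP1 probe was too, except in dog 4, where the uncalled difference was -0.0041 after normexp. Of 10 calls over the 16 pairs of gene and dog, 10 were made with the replicate block and 9 to 10 on leaving out 1 array, but 3 after normexp and quantile normalisation. With the authors' value table the calls of F3 in dog 4 and of KDR and TJP1 in dog 1 were lost. The replicate numbers did not pair the arrays (correlations of same-numbered residuals -0.33 to 0.20). The mean difference of F3 was -0.88 after normexp and -1.25 from the authors' value table, and that of the 5-spot TJP1 probe -0.56 after normexp. The normexp correction added an offset of 50 signal units, and the value table holds raw medians with no background subtracted. An added constant makes log2 differences of dim probes smaller, and these genes were dim. How much of the change it accounts for was not tested.

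Counts over all probes moved by more than 1.5 times under some alternatives. Calls lower ranged from 609 to 3258 (2680 as reported) in dog 1, 1537 to 3693 (3477) in dog 2, 637 to 2067 (1901) in dog 3 and 134 to 882 (541) in dog 4. Of the calls, 31.4% were higher in dog 1 and 26.0% in dog 2, against 45.8% and 36.6% with median scaling, which moved the median difference of all probes there from -0.05 to 0.13 and in dog 2 from 0.10 to 0.24. In dog 4 that share was 70.7%, and 39.9% after normexp. The mean of VWF over dogs lay between -0.15 and 0.04. No within-slide value could be had in dog 4. Signal close to background limits F3 in dogs 1 and 4, KDR in dog 1 and TJP1 in dog 1.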
